A study of Mus musculus with 6 samples.

Results

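Matrix metalloproteinases (MMPs) and their tissue inhibitors (TIMPs) were followed in sorted mouse lung fibroblasts, as 10 of the 43430 gene IDs in the deposited count table. The 10 genes were taken by name: the secreted proteases Mmp2, Mmp3, Mmp11 and Mmp19, the proteases made with a membrane anchor Mmp14 and Mmp23, and the inhibitors Timp1, Timp2, Timp3 and Timp4. Male C57BL/6J mice, 9 to 11 weeks old when obtained, either stayed in room air (naive mice, for which the labels give no length of exposure) or breathed 10% CO2 for 10 days. Each group had 9 mice. The labels name no transgene or deletion for either group. Lung cells positive for PDGFRA, the receptor that marks most lung fibroblasts, were sorted by flow cytometry, and the cells of 3 mice were pooled into each of 3 libraries per group. The room air libraries are called M1, M2 and M3 and the CO2 (hypercapnia) libraries M4, M5 and M6. Levels are in CPM, read counts scaled to a common library size that is corrected for composition. A gene is called higher or lower when its edgeR p-value, adjusted over all 13005 genes past the filter on low counts, was under 0.05.

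MMPs are zinc-dependent proteases that cut collagens, elastin, proteoglycans and other proteins outside the cell. They are made as inactive precursors, and a prodomain must be removed before they can cut. For Mmp11, Mmp14 and Mmp23 this is done inside the cell by furin-type proteases, while precursor MMP2 is activated at the cell surface by MMP14 with TIMP2 as the bridge between them. TIMPs block active MMPs, and TIMP3 also blocks several cell surface sheddases and binds to the matrix itself. In the lung, fibroblasts are a main source of MMP2, MMP14, TIMP2 and TIMP3.

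The libraries held between 8999780 and 10198336 counts, so that 3 counts corresponded to between 0.281 and 0.354 CPM. Pdgfra, the gene of the sorted receptor, stood between 2530 and 3707 CPM in the 6 libraries, and the leukocyte marker Ptprc had 2 counts in all of them together. The endothelial marker Pecam1 stood between 56.7 and 391 CPM, and the epithelial marker Epcam at no more than 2.24 CPM. Markers of endothelial cells were present. Their summed level over 12 genes ran from 530 to 1798 CPM in room air and from 1738 to 2795 CPM in hypercapnia, with overlapping ranges. All 12 had a positive log2 fold change, and edgeR called 0 of them (6 had an unadjusted p under 0.05 and DESeq2 called 2). M3 stood apart with the 530 CPM. Alveolar fibroblast markers summed to between 26869 and 27243 CPM in room air and between 20546 and 22230 CPM in hypercapnia, and 7 of 12 were called lower. Adventitial fibroblast markers summed to between 3703 and 4241 CPM and between 4014 and 5492 CPM, and 11 of 12 had a positive log2 fold change. Of these 12 edgeR called 1, higher, 8 had an unadjusted p under 0.05 and DESeq2 called 4. Pericyte and smooth muscle markers summed to between 273 and 302 CPM in room air and between 244 and 281 CPM in hypercapnia. Mesothelial markers summed to between 13.9 and 25.3 CPM and between 9.55 and 69.4 CPM. Neither edgeR nor DESeq2 called a gene of the type 2, airway, pericyte or mesothelial lists. In sorted pools of cells, fewer cells of a type and less RNA per cell cannot be told apart.

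In the edgeR test with all 6 libraries, Mmp14 was the only member called. Its transcript, which encodes the membrane-anchored collagenase that also activates precursor MMP2, was 1.91-fold lower after CO2. Mmp11, the stromelysin of stromal cells, had a decrease of nearly the same size that did not pass the test, and Timp3 had a smaller increase that did not pass either. Timp2 and Mmp2, the most abundant inhibitor and protease per length of exon, had log2 fold changes of -0.14 and 0.05. Of the 9 members past the filter, 1 was called lower and none higher, where 0.7% of all tested genes were called lower, 0.523% higher and 1.22% in either direction. Over the 9 the median log2 fold change was 0.02, beside 0.01 over all tested genes, and the median of its size was 0.28, beside 0.18.

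The sequence upstream of the Mmp14 start is shown because Mmp14 was the member called. That of Mmp3 is shown because it alone among the 8 members with a listed promoter held the letters of an AP-1 site, the binding site of Fos and Jun proteins. Both run from 250 bases before the annotated start up to the start, on the + strand of GRCm38.p6, with starts and sequences from RefSeq, which matched 8 of the 10 members (all but Mmp2 and Mmp19). Mmp14 is read at chr14:54431348-54431597 and Mmp3 at chr9:7445572-7445821. Capitals mark the motif letters found.
Mmp14: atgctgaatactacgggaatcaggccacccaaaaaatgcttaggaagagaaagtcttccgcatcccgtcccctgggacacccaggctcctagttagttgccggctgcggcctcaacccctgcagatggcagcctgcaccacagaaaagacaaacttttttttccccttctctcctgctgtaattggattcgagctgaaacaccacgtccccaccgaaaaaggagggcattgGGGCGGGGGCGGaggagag
Mmp3: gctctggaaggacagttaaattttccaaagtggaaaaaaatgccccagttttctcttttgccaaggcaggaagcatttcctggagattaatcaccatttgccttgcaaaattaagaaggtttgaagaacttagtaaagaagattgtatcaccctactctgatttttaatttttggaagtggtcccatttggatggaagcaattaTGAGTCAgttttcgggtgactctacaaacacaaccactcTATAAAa
Motifs were searched on both strands, in windows that ran on to 50 bases after the start. The AP-1 site was searched as TGANTCA. The letters of the GC box were GGGCGG. An E-box was taken as CACGTG. The TATA box was read as TATAAA. For EGR factors the letters were GCGTGGGCG, which can overlap a GC box. In Mmp14 the capitals are 2 adjoining GC boxes that begin 19 and 13 bases before the start. In Mmp3 they are an AP-1 site that begins 46 bases before the start and a TATA box that begins 7 bases before it. Among 32851 promoters in the table, 35.7% held a GC box, 7.81% an AP-1 site, 13.6% a TATA box, 7.15% an E-box and 0.612% an EGR site. The promoters of Mmp11, Timp1, Timp2, Timp3 and 1 of the 2 listed for Mmp23 also held a GC box, so this motif did not set Mmp14 apart from the other members. Guanine and cytosine made up 56% of the Mmp14 window and 40% of the Mmp3 window, against a median of 52.7% over the table. A match is a description of the letters and not a measured binding site.

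**Figure D1:**
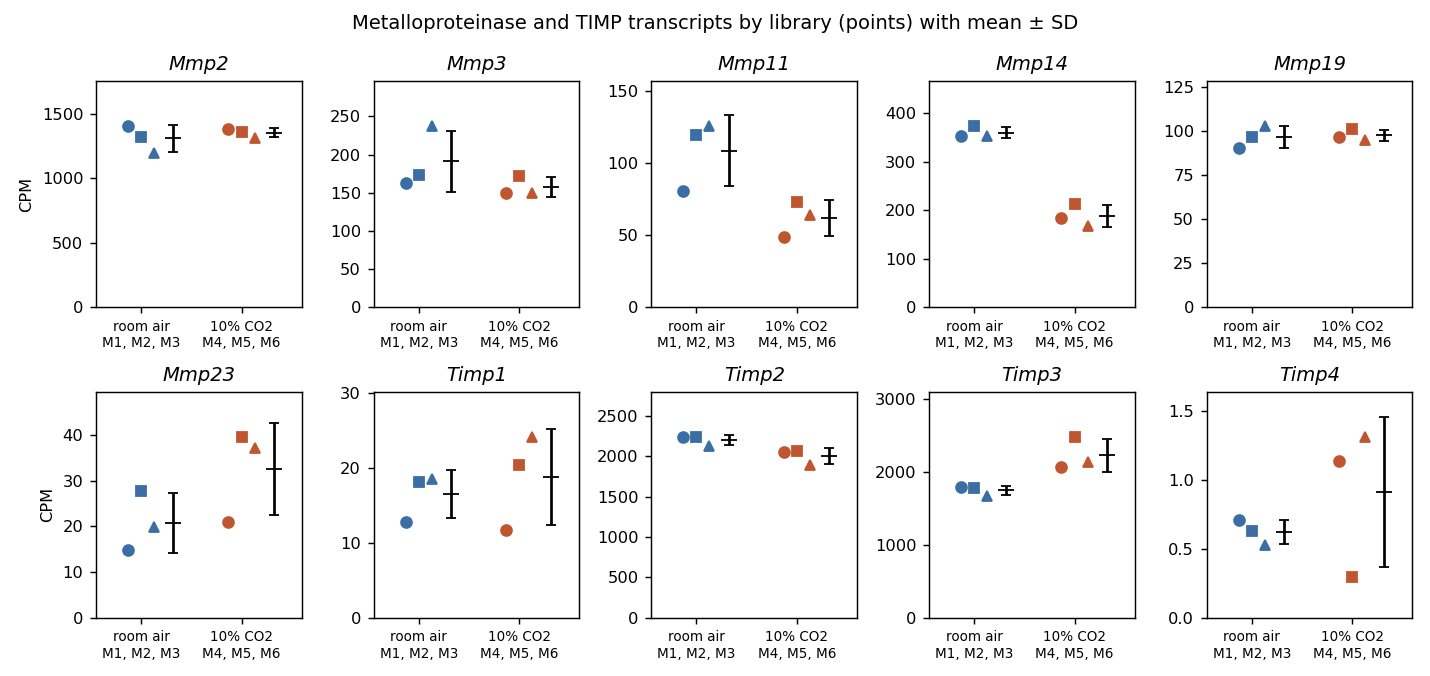
CPM (vertical axes, each from 0) of the 10 members in each library, blue for room air (M1, M2, M3) and orange for 10% CO2 (M4, M5, M6), with the mean and SD of 3 libraries in black beside the points. Mmp14 lies between 353 and 374 CPM in room air and between 168 and 213 CPM in hypercapnia, while the points of Mmp2 and Mmp19 overlap.

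Among the proteases made with a membrane anchor, Mmp14 (ENSMUSG00000000957, chromosome 14 from 54431612 to 54445364, + strand, GRCm38) stood at 354, 374 and 353 CPM in M1, M2 and M3, which are room air. After CO2 it stood at 184, 213 and 168 CPM in M4, M5 and M6. All 3 hypercapnia values were thus far below all 3 room air values, and the gap between the groups was several times the spread inside either. The means were 360 ± 11.6 and 188 ± 23.0 CPM (SD, n = 3 libraries), a log2 fold change of -0.94 ± 0.12 (SE) with an edgeR adjusted p of 0.00582, the rank of 21 by p among the tested genes. These values rest on 15449 counts, and no exonic base of Mmp14 is shared with another gene model. Counting error was at most 2.49% of a library's value, below the spread of 12.2% between the hypercapnia libraries. Without M2 the log2 fold change was -0.91 and the call was lost (edgeR adjusted p = 0.0575), and with any other single library left out the adjusted p lay at or below 0.0313. With the endothelial level as a covariate the log2 fold change was -0.98 ± 0.14 (edgeR adjusted p = 0.00424). The fall of Mmp14 went with lower summed levels of alveolar fibroblast markers, whose part in it was not tested.

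Mmp23 (ENSMUSG00000029061, chromosome 4 from 155650655 to 155653384, - strand), a protease whose precursor is held in the membrane by its amino-terminal end, had values in the other direction. It stood at 14.7, 27.6 and 19.8 CPM in room air and at 20.97, 39.6 and 37.2 CPM in hypercapnia. M2 lay above M4, so the groups overlapped, and the log2 fold change of 0.65 ± 0.27 did not pass (edgeR adjusted p = 0.368). The spread between libraries was 31.3% of the mean in room air and 31.1% in hypercapnia.

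Of the secreted proteases, Mmp11 (ENSMUSG00000000901, chromosome 10 from 75923222 to 75936496, - strand) came closest to the threshold. Its values were 80.7, 120 and 126 CPM in room air and 48.5, 73.0 and 63.8 CPM in hypercapnia. The groups did not overlap, with M1 low among the room air libraries and M4 low among the others. The means were 109 ± 24.4 and 61.8 ± 12.4 CPM, with a log2 fold change of -0.81 ± 0.19 and an edgeR adjusted p of 0.0792. Mmp11 was called by DESeq2 (adjusted p = 0.00192), without a filter on low counts (edgeR adjusted p = 1.55e-06) and without M1 (0.0278). When the endothelial level entered the fit, the log2 fold change was -0.54 ± 0.20 (0.195). On the other strand 5.58% of its exonic bases are shared with Chchd10, which had 230 counts in all libraries against 4857 for Mmp11.

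Mmp2 (ENSMUSG00000031740, chromosome 8 from 92827291 to 92853420, + strand), the gelatinase that cuts denatured and basement membrane collagen, was the most abundant protease. It stood at 1406, 1326 and 1201 CPM in room air and at 1386, 1363 and 1317 CPM in hypercapnia. The hypercapnia values all lay inside the room air range, and the log2 fold change was 0.05 ± 0.10 (edgeR adjusted p = 0.916). With 75912 counts behind it, its depth was not what limited this comparison, and counting error was at most 0.94% of a library's value.

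Mmp3 (ENSMUSG00000043613, chromosome 9 from 7445822 to 7455975, + strand), or stromelysin, which cuts proteoglycans and activates other precursor MMPs, stood at 162, 173 and 237 CPM in room air. In hypercapnia it stood at 150, 172 and 150 CPM. M3 alone was high, the other values overlapped, and the log2 fold change of -0.28 ± 0.15 did not pass (edgeR adjusted p = 0.514). M3 was also the library with the lowest endothelial level, and with that level as a covariate the log2 fold change of Mmp3 was 0.01 (0.982). Mmp19 (ENSMUSG00000025355, chromosome 10 from 128790910 to 128800824, + strand), a protease of basement membrane proteins, stood at 90.3, 96.6 and 103 CPM and at 96.6, 101 and 95.1 CPM. Its groups overlapped fully, with a log2 fold change of 0.02 ± 0.11 (edgeR adjusted p = 0.978). For Mmp19 28.3% of the exonic bases are shared with Tmem198b and a second gene model on the other strand, and the strand setting of the counting is not given in the sources used here.

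Among the inhibitors, Timp3 (ENSMUSG00000020044, chromosome 10 from 86300372 to 86349506, + strand) stood at 1788, 1787 and 1677 CPM in room air. It stood at 2063, 2482 and 2142 CPM in hypercapnia. Every hypercapnia library was above every room air library, with M5 highest. The means of 1750 ± 63.7 and 2229 ± 222 CPM gave a log2 fold change of 0.35 ± 0.10, which did not pass (edgeR adjusted p = 0.156). Timp3 lies within the Syn3 gene on the opposite strand and shares 21.3% of its exonic bases with it. Syn3, a synapsin gene, had 292 counts in all libraries, against 114133 for Timp3.

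Timp2 (ENSMUSG00000017466, chromosome 11 from 118301069 to 118355740, - strand), the inhibitor that also takes part in MMP2 activation, was the most abundant member per length in both groups and, in CPM, in room air. It stood at 2231, 2238 and 2130 CPM in room air and at 2046, 2065 and 1885 CPM in hypercapnia. The groups did not overlap, yet the difference was small, with a log2 fold change of -0.14 ± 0.09 (edgeR adjusted p = 0.613). No exonic base of Timp2 is shared with another gene model.

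Timp1 (ENSMUSG00000001131, chromosome X from 20870166 to 20874735, + strand), the inducible member of the family, was low in these cells, at 12.9, 18.2 and 18.6 CPM in room air. It stood at 11.7, 20.5 and 24.2 CPM in hypercapnia. M4 was the lowest and M6 the highest of all, so the hypercapnia values spanned the room air range, and the log2 fold change was 0.19 ± 0.27 (edgeR adjusted p = 0.865). Timp4 (ENSMUSG00000030317, chromosome 6 from 115241892 to 115252205, - strand), an inhibitor best known from heart and fat, did not pass the filter. It had 6, 6 and 5 counts in room air and 10, 3 and 14 in hypercapnia, and the ratio of hypercapnia to room air was 1.47 (exact 95% bounds 0.773 and 2.88, for counting error alone). No difference in Timp4 was detected, and the bounds include 1. It shares 1.53% of its exonic bases with Syn2, which had 4580 counts against 44, and without strand their reads in the shared bases cannot be told apart.

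In all, 4 of the 9 tested members had groups that did not overlap, 3 lower (Mmp14, Mmp11, Timp2) and 1 higher (Timp3). Among all tested genes 18% had groups that did not overlap, 8.74% lower and 9.28% higher. The number of members with an unadjusted p under 0.05 was 4 (Mmp14, Mmp11, Timp3 and Mmp23), and 1567 of the 13005 tested genes had such a p.

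**Figure D2:**
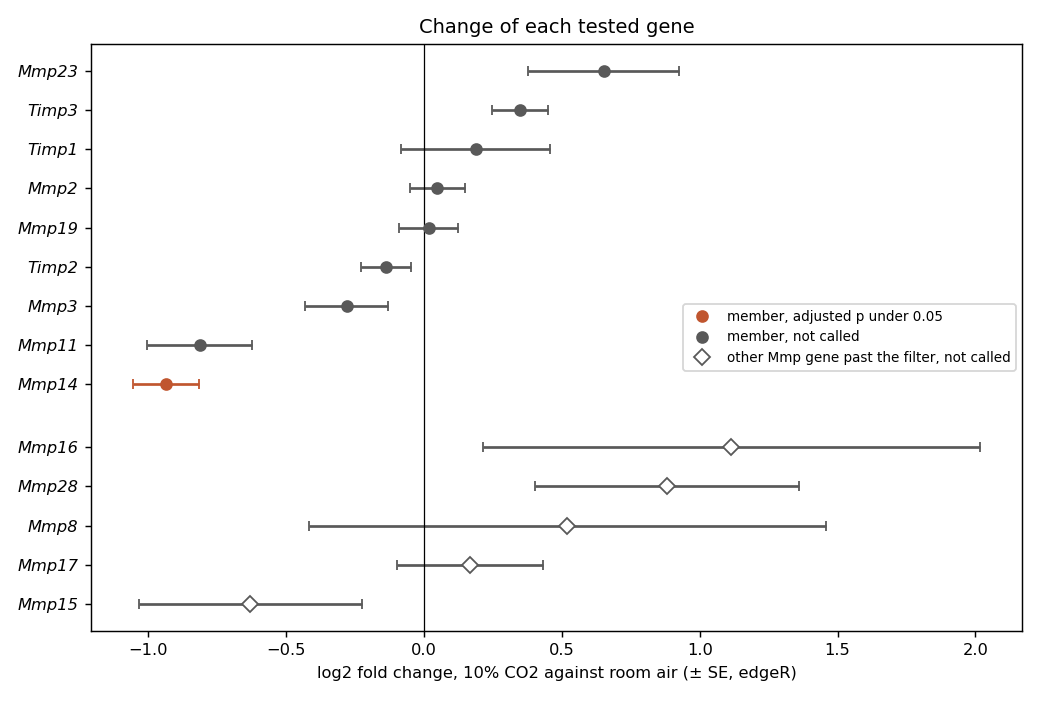
log2 fold change of hypercapnia against room air (horizontal axis, with SE from edgeR) for the 9 tested members (filled circles) and the 5 other Mmp genes past the filter (open diamonds). Mmp14, in orange at -0.94, is the gene called, Mmp11 lies beside it at -0.81, and Mmp23 at 0.65 is the highest member.

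Levels of different genes were compared per kilobase of exon, as CPM divided by the length of all annotated exons together. In room air the order was Timp2 (565 CPM per kilobase), Mmp2 (389), Timp3 (215), Mmp3 (106), Mmp14 (60.4), Mmp11 (39.1), Mmp19 (27.3), Timp1 (18.6), Mmp23 (8.86) and Timp4 (0.106). The ranges over the 3 room air libraries overlapped for the neighbours Mmp11 and Mmp19 and were separate for every other pair of neighbours. The order depends on the length used where transcripts differ in length. With the longest transcript as the length, Mmp14 stood at 111 and Mmp3 at 106 CPM per kilobase with overlapping ranges, and Timp1 and Mmp23 overlapped too. The 4 genes at the top, by exon union, thus held a gelatinase, a stromelysin and the inhibitors Timp2 and Timp3, and Timp4 was at the bottom by either length.

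**Figure D3:**
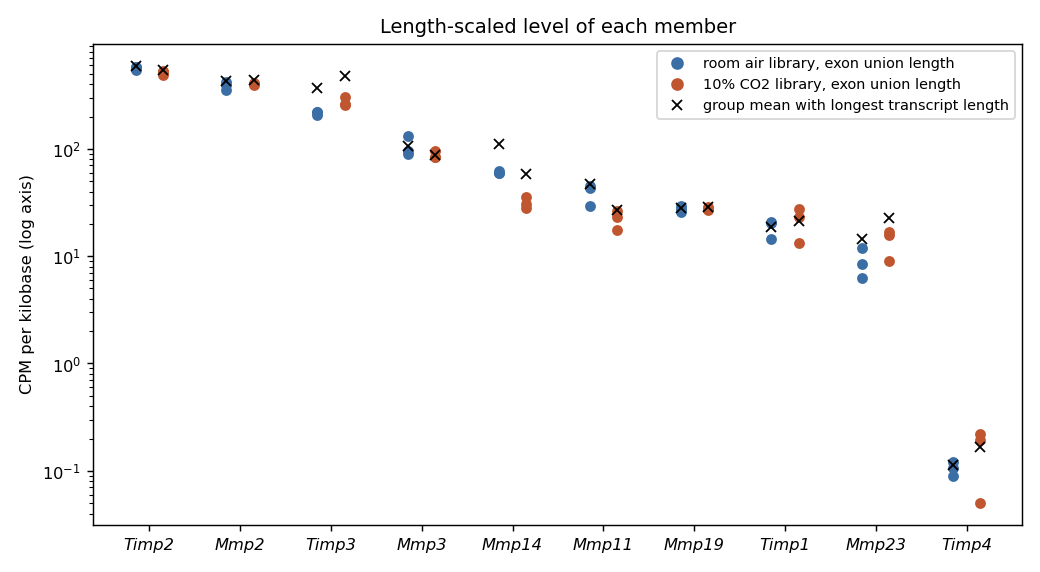
CPM per kilobase (vertical log axis) of the 10 members, ordered by their room air mean, with 1 point per library and crosses for the group means when the longest transcript gives the length. Timp2 at 565 and Mmp2 at 389 lead in room air, Timp4 at 0.106 is last, and Mmp14 drops from 60.4 to 31.6 in hypercapnia.

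Summed over the 6 proteases, the level was 631 ± 3.53 CPM per kilobase in room air and 585 ± 20.4 in hypercapnia (SD, n = 3). Summed over the 4 inhibitors it was 798 ± 21.6 and 808 ± 44.1. Inhibitor transcripts therefore exceeded protease transcripts in every library, by a ratio of 1.29, 1.28 and 1.23 in M1, M2 and M3 and of 1.37, 1.41 and 1.36 in M4, M5 and M6. With longest transcripts as the lengths the mean ratio was 1.34 ± 0.03 in room air and 1.55 ± 0.04 in hypercapnia. Mmp14 made up 9.58 ± 0.26% of the protease sum in room air and 5.39 ± 0.47% in hypercapnia, and Mmp2 61.7 ± 4.95% and 68.8 ± 2.23%. Timp3 made up 26.9 ± 0.30% of the inhibitor sum in room air and 33.8 ± 1.76% in hypercapnia, while Timp2 made up 70.7 ± 0.23% and 63.5 ± 2.43%. These sums follow the members already described and carry no test of their own.

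Ratios between partner transcripts were taken inside each library, where the scaling of the library cancels, to ask whether 2 members differed in their change. The log2 ratio of Mmp14 to Timp2, the pair that forms the surface receptor for precursor MMP2, was -2.65, -2.58 and -2.59 in M1, M2 and M3. It was -3.47, -3.28 and -3.49 in M4, M5 and M6. All 3 hypercapnia values were thus below all 3 room air values, with a difference of -0.80 ± 0.07 (SE). For Mmp14 to Mmp2, its substrate, the difference was -0.99 ± 0.11. The ratio of Mmp2 to Timp2 was 0.19 ± 0.05 higher in hypercapnia, and that of Mmp19 to Timp3, a protease and an inhibitor of broad range, was -0.33 ± 0.10. In these 4 pairs the groups did not overlap. Each had an exact two-sided permutation p of 0.1, the smallest that 3 against 3 libraries allow, and 0.125 after adjustment over the 5 pairs. The ratio of Mmp3 to Timp1 ran from 3.25 to 3.67 in room air and from 2.63 to 3.67 in hypercapnia, with overlapping groups (exact permutation p = 0.3, adjusted 0.3). The ratios are made from the values of members already described, and Mmp14 was known to have passed its test. They are thus no separate support for its change. How often the groups of other gene pairs do not overlap was not measured.

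**Figure D4:**
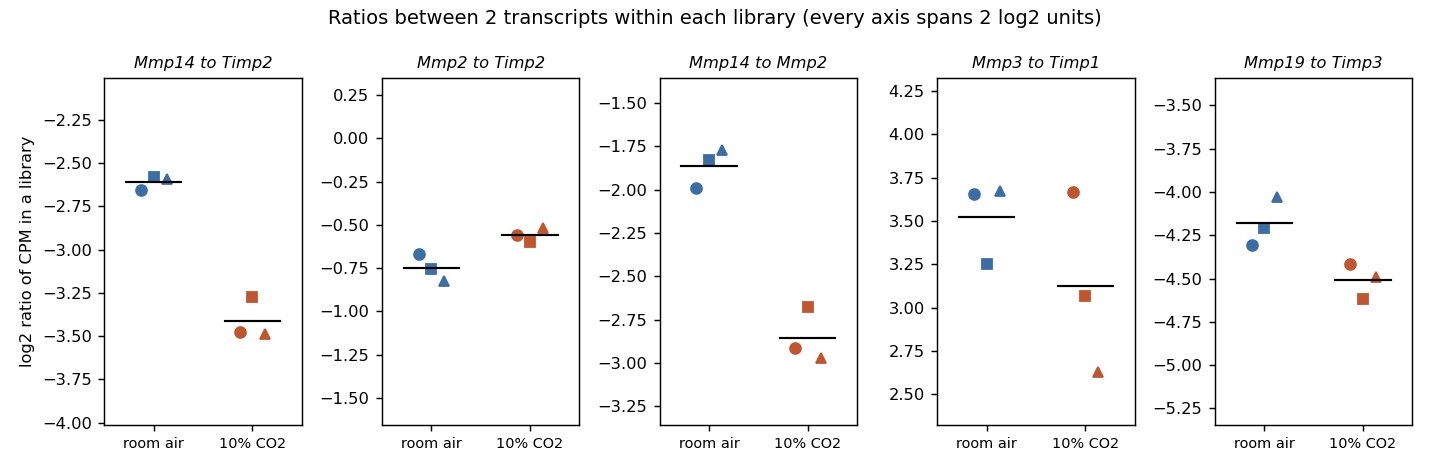
log2 ratio of the CPM of 2 transcripts in each library (points, blue for room air and orange for 10% CO2), with the group mean as a line and every axis spanning 2 log2 units. Mmp14 to Timp2 has a mean of -2.61 in room air and -3.41 in hypercapnia, Mmp14 to Mmp2 -1.86 and -2.85, while the points of Mmp3 to Timp1 overlap.

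The other 17 Mmp genes in the table were low or absent. The level per kilobase was at most 5.70 in any library for these genes, below every library's value for the tested members. Past the filter were Mmp15 (22.2 ± 12.0 CPM in room air and 14.3 ± 4.23 in hypercapnia), Mmp28 (8.70 ± 6.16 and 16.0 ± 3.33), Mmp17 (8.63 ± 0.83 and 9.67 ± 1.99), Mmp16 (1.11 ± 1.26 and 2.38 ± 0.41) and Mmp8 (0.984 ± 0.95 and 1.43 ± 0.83). The edgeR test called 0 of the 5, with adjusted p from 0.518 to 0.9, and 0 had an unadjusted p under 0.05 or were called by DESeq2. Mmp15 and Mmp28 were lowest in M3 among the 6 libraries, at 8.49 and 2.33 CPM. M3 also had the lowest summed endothelial, alveolar type 2 and macrophage markers, at 530, 140 and 11.8 CPM. It was not the lowest for airway, mesothelial or pericyte and smooth muscle markers. The part of other cells in the counts of Mmp15 and Mmp28 was not tested. Below the filter, Mmp9, a gelatinase of neutrophils and macrophages, had 21 counts, all of them in M5. Mmp27 had 34 counts, Mmp12, the macrophage elastase, 20, Mmp13, a collagenase, 13, Mmp21 8, Mmp24 5 and Mmp10 2. Mmp1a, Mmp1b, Mmp7, Mmp20 and Mmp25 had 0 counts in every library, which allows up to 0.354 CPM in the library with the fewest counts.

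Among leukocyte markers, the macrophage genes Adgre1, Marco and Siglecf and the neutrophil genes S100a8, Ly6g and Retnlg had 0 counts in all libraries. The other neutrophil genes Cxcr2, Csf3r and S100a9 had 24, 14 and 1 counts. Of the other macrophage genes, Cd68 had 106 counts, Mrc1 43, Csf1r 25, C1qa 9, Ptprc 2 and Itgam 1. In no library did the neutrophil list sum to more than 1.22 CPM or the lymphocyte list to more than 0.75 CPM. The macrophage list summed to between 11.8 and 56.1 CPM in room air and between 24.5 and 62.2 CPM in hypercapnia, most of it from Lyz2, which alveolar epithelium also expresses.

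Mmp3 is a member of a cluster of 10 Mmp genes on chromosome 9 from 7272514 to 7699585. In these fibroblasts Mmp3 held 98.6% of the counts of the cluster, with 9926 counts, and its closest neighbours Mmp1a and Mmp10 had 0 and 2. Mmp8, with 71 counts, came next. Nearly all counts of the cluster thus came from 1 gene.

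Genes that process or block MMPs gave 0 calls by edgeR, with 4 at an unadjusted p under 0.05 and 1, Furin, called by DESeq2. Of 19 such genes 15 were tested, 8 with a positive and 7 with a negative log2 fold change (median 0.00). Furin, the protease that removes the prodomain of MMP14 and MMP11, stood at 160, 178 and 168 CPM in room air and at 141, 121 and 113 CPM in hypercapnia. The groups did not overlap, with a log2 fold change of -0.43 ± 0.12 (edgeR adjusted p = 0.133). Pcsk5, a protease of the same family, stood at 115, 110 and 101 CPM and at 154, 160 and 128 CPM (0.44 ± 0.12, edgeR adjusted p = 0.137). Pcolce, an enhancer of procollagen processing that shares a domain type with TIMPs, had a log2 fold change of -0.31 ± 0.11 (edgeR adjusted p = 0.254). Reck, a membrane-bound inhibitor of MMP14 and MMP2, stood at 265 ± 18.2 and 241 ± 17.7 CPM, and Lrp1, the receptor that clears MMPs and TIMPs, at 5117 ± 503 and 5118 ± 582 CPM. Both genes were chosen after their values were seen, and neither passed (edgeR adjusted p of 0.713 and 0.9996).

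Of 10 genes of the ADAM family, which is related to MMPs, 8 were tested, edgeR called 1 and DESeq2 called 2 (Adam17 and Adam19). Adam17, which releases TNF and EGF-family ligands and is blocked by TIMP3, stood at 137, 158 and 125 CPM in room air and at 92.2, 78.5 and 91.9 CPM in hypercapnia. The groups did not overlap, and it fell by 0.68 on the log2 scale (SE 0.13, edgeR adjusted p = 0.0339). That call was lost without M1, M2, M5 or M6 (edgeR adjusted p of 0.0692, 0.183, 0.186 and 0.0961). Adam19 had a log2 fold change of -0.90 ± 0.19 (edgeR adjusted p = 0.0613), Adam33, a gene of mesenchymal cells, one of 1.497 ± 0.46 (0.18), and Adam23 one of 0.53 ± 0.17 (0.207).

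Among 14 matrix proteins that MMPs cut, 13 were tested and 1 was called. Eln, the elastin gene, stood at 1768, 2236 and 2400 CPM in room air and at 1006, 719 and 748 CPM in hypercapnia (log2 fold change -1.37 ± 0.16, edgeR adjusted p = 0.00365). The main MMP14 substrate genes Col1a1 and Col1a2 had log2 fold changes of -0.04 and 0.19, Col1a2 being chosen after its values were seen, and neither passed (edgeR adjusted p of 0.929 and 0.475). Vcan (0.37 ± 0.14), Col5a1 (-0.27 ± 0.11) and Tnc (-0.34 ± 0.14) did not pass (edgeR adjusted p of 0.318, 0.329 and 0.354).

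Transcription factors of the AP-1, ETS, RUNX and EGR families, which act on MMP promoters, gave 0 calls by edgeR and by DESeq2 among 13 tested of 14, with 1 unadjusted p under 0.05. The smallest p were those of Jund (-0.74 ± 0.25, edgeR adjusted p = 0.232), Etv5 (0.36 ± 0.18, 0.471) and Fosl1 (1.22 ± 0.64, 0.499). The spread between libraries differed by gene. For Fos it was 43.6% of the mean in room air and 107% in hypercapnia, and for Etv5 18.7% and 11.9%. Fos stood at 5075, 3350 and 2040 CPM in room air and at 4077, 368 and 1062 CPM in hypercapnia, and its values were chosen after they were seen.

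The genes whose levels over the 6 libraries were most like those of Mmp14, among 9222 other named genes at a mean of at least 10 CPM, were H13 (Pearson r = 0.995), Afap1 (0.992), Sept11 (0.99) and Arhgef19 (0.99). For Mmp11 they were Fah (0.991), Slc1a3 (0.988), Gsn (0.984) and Snx33 (0.977). These coefficients describe 6 points that share the group difference. They were picked as the highest of many and have no test.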

How the data were processed

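The authors deposited 1 table of raw read counts by Ensembl gene ID. The build mm10 and the tools TopHat2 2.1.0, HTSeq, FastQC and bcl2fastq 2.17.1.14 stand in the submitters' processing notes. For annotation release and strand setting, nothing is stated in the labels. Columns name the group but not the sample, so each was assigned to its group. Symbols, lengths and positions came from GENCODE M21 (GRCm38), with a symbol for 42462 of 43430 IDs, and promoters from RefSeq. Every member was found.

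Counts were tested with edgeR 4.0.16 (R 4.3.3): TMM factors (0.943 to 1.05), default filter with a minimum count of 10, quasi-likelihood F-test, two-sided, group as the only term, Benjamini-Hochberg adjustment over 13005 genes. The SE is the log2 fold change divided by the square root of F. Log2 ratios used a prior count of 0.5 and an exact permutation test. The fit was first tested on simulated data. Alternatives were RLE or no composition factors, other filters, DESeq2 1.42.0, limma-voom 3.58.1, robust dispersion, an endothelial covariate, and each library left out.

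The members and all lists were chosen with earlier results of these data known. The rule for named genes took all members and all other Mmp genes, and from each other list the called genes and up to 3 more with the smallest p. For the lists of cell type markers the text gives summed levels instead, with counts of single leukocyte genes. It added 5 genes that check the sort (Epcam, Pecam1, Ptprc, Col1a1, Pdgfra) and the 4 genes most like Mmp14 and the next member by p. Libraries pool 3 mice each, so p-values measure the spread between pools. No library was a repeat of another (chi-square per degree of freedom at least 12.6).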

Additional observations from a re-analysis of the deposited data

How the results depend on the processing

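Mmp14 kept a negative log2 fold change in all 14 alternatives (-0.98 to -0.87 with other settings, -1.04 to -0.86 with 1 library left out) and lost its call in 1, without M2. The number of members called was 3 without a filter (Mmp11, Mmp14, Mmp23), 2 by DESeq2 (Mmp11, Mmp14) and 0 to 2 with 1 library left out: 0 without M2 and 2 without M1. Over all genes 159 were called, 756 without a filter, 435 by DESeq2, 255 with robust dispersion and 24 to 148 with 1 library left out, with 24 without M2, 27 without M5 and 42 without M6. Of the calls 68 were higher and 91 lower, against 97 and 75 without composition factors, 467 and 289 without a filter. The cause of these differences was not tested. Members near 0 turned sign: Mmp19 without M1 or M5 (range with 1 library left out -0.0318 to 0.0619), Mmp2 without M3 (-0.0131 to 0.0991) or with the endothelial covariate (-0.0654), Mmp3 with that covariate (0.0104) and Timp1 without M6 (-0.0364 to 0.432). The 5 ratios kept their sign with a prior count of 2 and with each library left out. No paired analysis was possible because the columns carry no replicate number shared between the groups. Counting error reached 9.85% of a library's value for Timp1 and 57.7% for Timp4, whose log2 fold change without a filter was 0.55 ± 1.18 (edgeR adjusted p = 0.909).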

Other observations

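In each group the library with the highest Fos level also had the lowest levels of Mmp11, Mmp23 and Timp1. In room air this was M1, with 5075 CPM of Fos, 80.7 CPM of Mmp11, 14.7 CPM of Mmp23 and 12.9 CPM of Timp1. In hypercapnia it was M4, with 4077 CPM of Fos, 48.5 CPM of Mmp11, 20.97 CPM of Mmp23 and 11.7 CPM of Timp1. At the other end, the lowest Fos level in hypercapnia was 368 CPM in M5, which had the highest Mmp11 and Mmp23 of its group, while M6 had the highest Timp1. In room air it was 2040 CPM in M3, which had the highest Mmp11 and Timp1, while Mmp23 was highest in M2. Mmp2 was highest of its group in M1 and M4, at 1406 and 1386 CPM. Mmp14, at 354 and 184 CPM in M1 and M4, was at neither end of the range in either group. The pattern was noticed after the values were seen and was not tested.

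The inhibitor genes Timp3 and Timp4 lie in or beside synapsin genes. Syn2, the partner of Timp4, had 4580 counts against 44 for Timp4, and Syn3, the partner of Timp3, had 292 counts against 114133. Timp1 had 1026 counts and Syn1 45. The balance between a TIMP gene and its synapsin partner thus had opposite orders at the pairs of Timp4 and Timp3 in the same cells.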
